A study of Mus musculus with 6 samples.

Results

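The genes described here are the adhesion molecules of the immunoglobulin superfamily, cell-surface proteins whose outer part is built from immunoglobulin-like domains. They were taken from a list of 39 genes in 10 small families, and a probe belonged to a gene when its accession mapped to that gene in RefSeq, under either its older or its current symbol. Of the 39 genes, 38 had a probe, out of 19751 genes with a named probe on the array. Their 56 probes gave 47 that could be tested, for 35 genes, called measured below. The expression data came from whole testes of 6 male C57BL/6J mice aged 10 weeks, 3 TAp73 KO (knockout) and 3 wild type, each read on 1 single-colour Agilent array. TAp73 names the Trp73 transcripts that encode the p73 protein with its transactivation domain, a relative of p53. The title of the series asks about adhesion and maturation of sperm cells. The sources used here do not say how the knockout allele was made or whether it acts in some cell types only. Nothing in the labels says whether the mice came from separate litters, so p-values measure the spread between these 6 arrays.

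Proteins of this superfamily hold cells together by binding a copy of themselves, another member, or an integrin on the neighbouring cell, and many are linked to actin or spectrin inside. In the seminiferous tubule they are part of the contacts between germ cells and Sertoli cells, the somatic nurse cells: Cadm1 sits on spermatogenic cells and is needed for male fertility in mice, and Nectin2 of Sertoli cells pairs with Nectin3 of spermatids. In the interstitium and vessels, Icam and Vcam proteins are the surfaces to which leukocyte integrins attach.

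Signals below are processed spot signals in units, scaled so that all arrays share the same 75th percentile. They can be compared between arrays for a probe, but not between probes. A difference is knockout minus wild type on the log2 scale with its standard error (SE) from limma, and a gene was called when its adjusted p was under 0.05. The targeted gene was read first. Trp73 probe A_52_P193555 gave 16.5, 5.77 and 5.86 in knockout mice 1 to 3 and 528, 524 and 537 in wild type mice 1 to 3, a difference of -6.01 (adjusted p = 0.00369), though only 1 of 3 knockout arrays read it well above background. Trp73 probe A_55_P1988133 differed by -3.21 (adjusted p = 0.00213; 2 of 3 knockout arrays well above background). The brightest, A_52_P410636, gave 544, 445 and 447 against 940, 933 and 972, 1.99-fold lower (adjusted p = 0.0104), with a signal above background on all arrays. Whether any of them lies in the deleted part was not tested. A value table of the same arrays carries the opposite group labels, which would turn every direction below around; the scanner files and their labels were followed. Each array read 74.4% to 84.4% of its 39429 probes well above background, and no member probe was saturated on any array. Knockout array 1 stood apart, at -66.2 on the first principal component against -4.91 to 30.8 for the other 5. Knockout arrays 1 and 2 and wild type arrays 1 and 3 shared one slide, and knockout array 3 and wild type array 2 the other.

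One patch of that array read low. Spots were compared with the same spots on the other 5 arrays in tiles of 10 rows by 5 columns, and on knockout array 1, 23 of 910 tiles had a median more than 0.5 below the others on the log2 scale. These tiles held 1032 spots, 2.399% of its probe spots, with a median deviation of -2.29 and a local background of 48.0 units against 25.5 elsewhere on that array. Knockout array 2 had 8 such tiles and wild type array 1 had 9, with no member spot among them, and the other 3 arrays had 0. The only spots of Mpzl1, Pvr, Nfasc, Dscam and Icam1 on knockout array 1 lay in its low tiles. Results of these 5 genes are therefore given with and without that spot, a setting chosen after the data were seen.

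**Figure D1:**
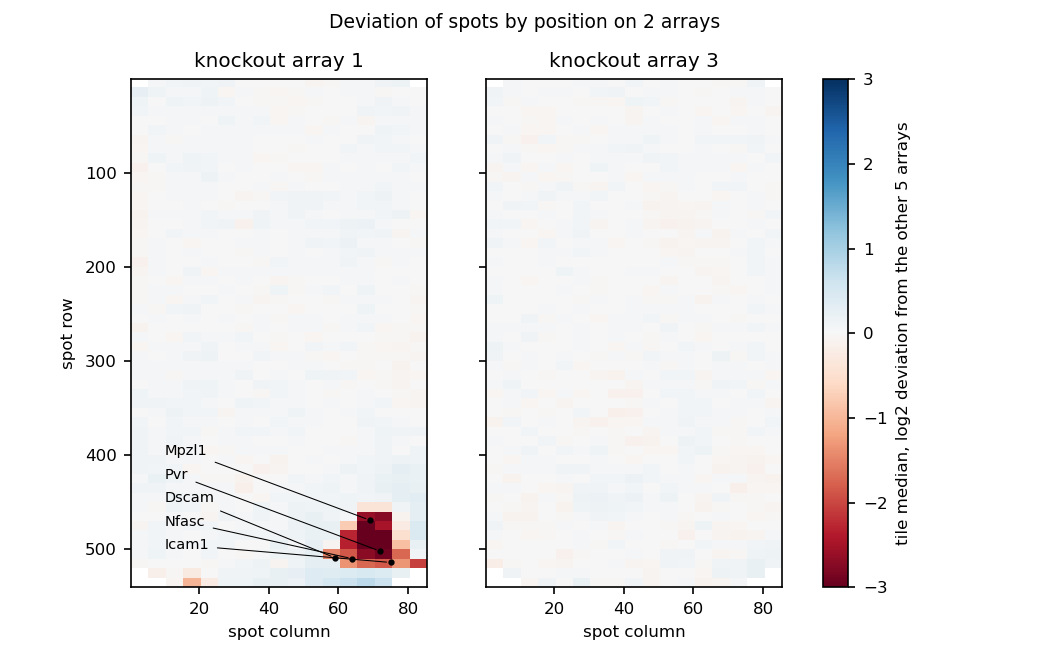
Median log2 deviation from the other 5 arrays in tiles of 10 rows by 5 columns, by spot row and column, for knockout array 1 (left) and knockout array 3 (right); red is lower. On knockout array 1 the spots of Mpzl1, Pvr, Dscam, Nfasc and Icam1 (black dots) lay in a patch of low tiles in the lower right part, and knockout array 3 had 0 low tiles.

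Among the 35 measured members, 2 fell in the knockout, Mpzl2 and Psg16, 0 rose, and 33 did not pass. That is 5.71% lower, where 3.53% of all 16947 measured genes were called lower and 0.218% higher. Vcam1 fell as well, but by only one of its probes. By probe, 3 of the 47 were called lower and 0 higher, beside 2.64% and 0.248% of all tested probes. At an unadjusted p under 0.05, 6 members were lower (17.1%, against 13.6% of all measured genes) and 1 was higher (2.86%, against 12.0%). Knockout and wild type did not overlap for 9 members lower in the knockout (25.7%, background 16.0%) and for 5 higher (14.3%, background 19.2%). The median difference of the members was -0.07, and that of all measured genes 0.05.

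**Figure D2:**
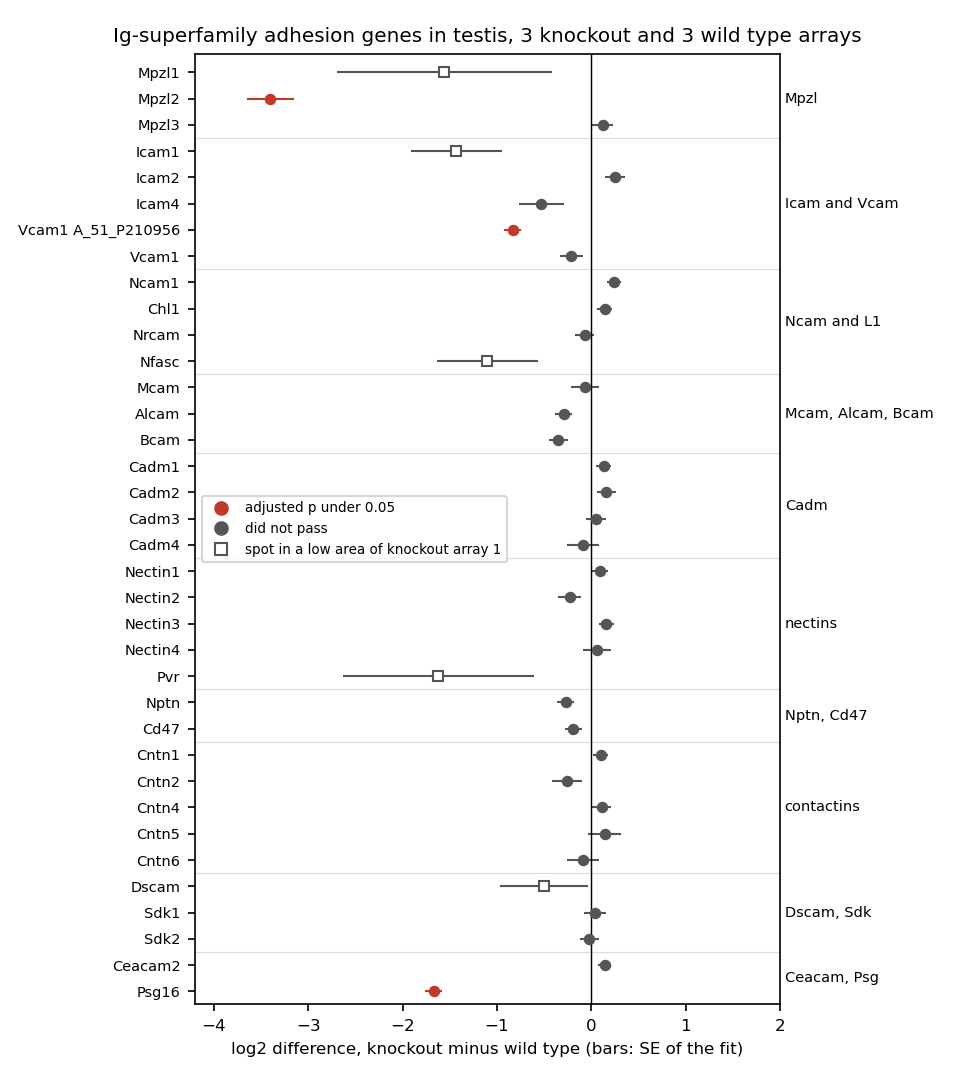
Log2 difference, knockout minus wild type, with the SE of the fit as bars, for the 35 measured members by family and for the second Vcam1 probe. Mpzl2, Psg16 and Vcam1 probe A_51_P210956 (red) passed the threshold, and the 5 genes with a spot in the low patch of knockout array 1 (open squares) had wide errors or low values without passing it.

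The largest fall was in the family of myelin protein zero-like genes. Mpzl2, a protein that binds copies of itself between epithelial cells and was first described in the thymus, gave 140, 93.1 and 91.4 units in knockout mice 1 to 3 and 921, 992 and 1536 in wild type mice 1 to 3 (probe A_52_P322421). Every knockout was below every wild type by a wide gap, and all 6 arrays read the probe well above background. The difference was -3.40 (SE 0.25, adjusted p = 0.0042), or 10.6-fold lower. Without each array in turn it was -3.60 to -3.17 with an adjusted p of 0.0117 to 0.0312. Within the 4 arrays of slide 1 it was -3.38, where the adjusted p was 0.184, and in the pair of slide 2 it was -3.44. Normexp background correction gave -2.08 (adjusted p = 0.537), a setting that left no called probe among all tested.

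Mpzl1 and Mpzl3 did not pass. Mpzl1, a surface receptor that recruits the phosphatase Ptpn11, gave 1132, 23223 and 20465 in knockout and 25388, 24513 and 21946 in wild type, so that one knockout array alone stood low. That spot lay in the low patch, with a local background of 89.0 units against 6.00 to 28.0 on the other arrays, and the difference of -1.56 (SE 1.14, adjusted p = 0.425) became -0.14 (adjusted p = 0.48) without it. Mpzl3, a relative needed for normal skin and hair, read 57.4, 57.9 and 51.8 against 49.8, 46.2 and 57.8, overlapping groups that differed by 0.12 (adjusted p = 0.496). Its second probe differed by 0.11 (adjusted p = 0.616).

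In the RefSeq order of genes, Mpzl3 is the next measured gene after Mpzl2, with Jaml, another immunoglobulin superfamily gene, beyond it (-0.25, adjusted p = 0.541). On the other side are Cd3e (0.13) and Cd3d (0.42, adjusted p = 0.103), chains of the T cell receptor complex. None of the 3 measured genes on either side of Mpzl2 was called, with differences of -0.25 to 0.42. Mpzl2 is a gene of epithelia, and of 17 measured markers of duct epithelium 1 was called lower, the water channel Aqp5, and 0 higher. Its counting probe lay in a low tile of knockout array 1, and the difference of -3.82 was -3.0 without that spot. A second Aqp5 probe, outside the low tiles, differed by -2.63. The list had a median of -0.01, with 2 lower and 1 higher before adjustment (limma, p under 0.05), beside 13.6% and 12.0% of all measured genes. Their summed signal was 29107 to 33397 in knockout and 29076 to 31187 in wild type, and no array read the epididymal genes Lcn5 and Lcn8 well above background. Of the Sertoli cell and macrophage markers, given with the families below, 6 of 22 and 5 of 20 were called lower in the same arrays. The share of all measured genes called lower was 3.53%. The part of any of these cells in the Mpzl2 result was not tested.

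The family of Ceacam and pregnancy-specific glycoproteins held the other called gene. Psg16, a secreted member of a family best known from the placenta, gave 45.5, 42.1 and 42.5 in knockout and 131, 152 and 132 in wild type. The values within each group lay close together and the groups were far apart, with all 6 arrays well above background. The difference was -1.67 (SE 0.09, adjusted p = 0.00278), 3.19-fold lower, and -1.71 to -1.60 without each array in turn (adjusted p 0.00889 to 0.0271). It was -1.59 within slide 1 (adjusted p = 0.143) and -1.84 between the arrays of slide 2. It shrank to -0.10 under normexp (adjusted p = 0.919), and under normexp with quantile normalization it was -0.77 (adjusted p = 0.0368). Both settings start from the median signal, not the processed signal printed above, and add an offset of 50 units. The part of the offset in the smaller difference was not tested. Of its 6 nearest measured neighbours in RefSeq order, 3 belong to the same glycoprotein family, Psg29, Psg18 and Psg28, with differences of 0.36, 0.33 and 0.09. None of the 6 was called, and their differences ran from -0.21 to 0.36. Members of this family are close in sequence, so the signal of this probe may include a relative.

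Ceacam2, a carcinoembryonic antigen-related adhesion molecule with a testis form, lay higher in the knockout without passing. Probe A_55_P2288983 gave 3447, 3689 and 3474 in knockout and 2757, 2934 and 2784 in wild type, a difference of 0.32 (SE 0.07, adjusted p = 0.0721). Probe A_55_P2386236 gave 3415, 3353 and 3244 against 3197, 2945 and 2954, a difference of 0.14 (adjusted p = 0.281). The groups did not overlap at either probe. The log2 ratio of the first to the second was 0.01 to 0.14 in knockout and -0.21 to -0.01 in wild type. Ceacam1, its near-identical paralog, had no matching probe here, so the source of these signals is uncertain between the 2 genes.

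**Figure D3:**
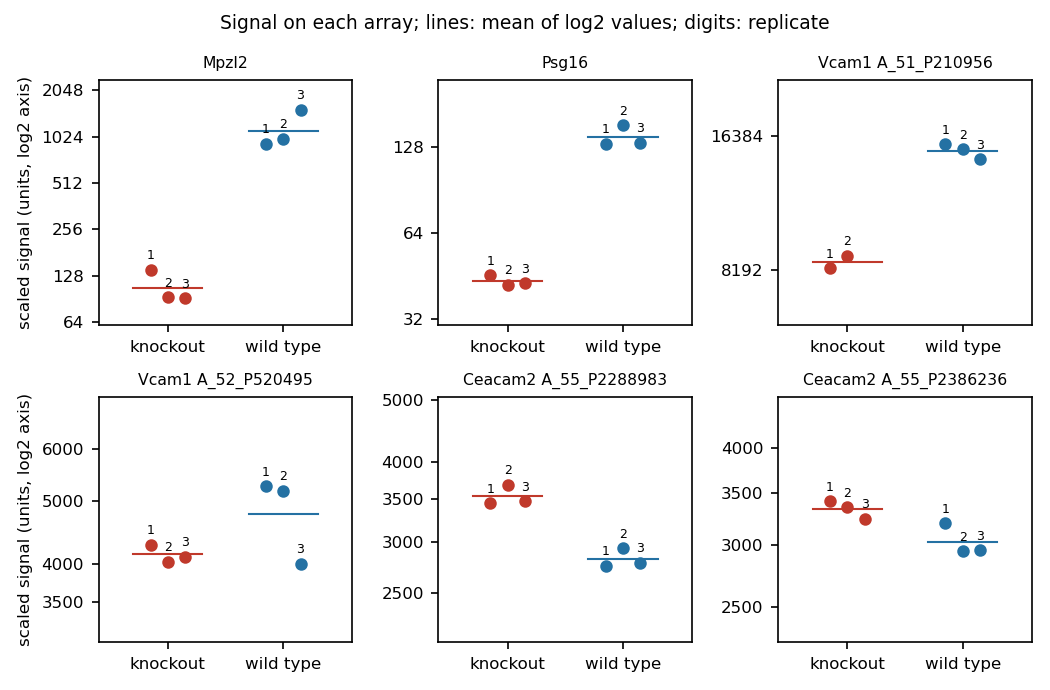
Scaled signal on each array (log2 axis, units) in knockout (red) and wild type (blue) for Mpzl2, Psg16 and both probes of Vcam1 and Ceacam2; digits give the mouse and lines the mean of the log2 values. Mpzl2, Psg16 and Vcam1 probe A_51_P210956 show groups far apart, while at Vcam1 probe A_52_P520495 wild type mouse 3, at 4008, lies among the knockouts.

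In the Icam and Vcam family, whose members are counter-receptors of leukocyte integrins, Vcam1 differed by probe. At probe A_51_P210956 it gave 8247 and 8815 in knockout mice 1 and 2 and 15740, 15315 and 14547 in wild type, with knockout array 3 left out because its spot was marked non-uniform. That is 1.78-fold lower, a difference of -0.83 (SE 0.09, adjusted p = 0.0178), and -0.86 (adjusted p = 0.00698) when the marked spot was kept. Probe A_52_P520495 represents the gene in the counts, since the brighter A_51_P210956 lacked a value on knockout array 3. There Vcam1 gave 4291, 4042 and 4111 against 5262, 5183 and 4008, groups that overlapped and differed by -0.21 (SE 0.12, adjusted p = 0.333). At A_51_P210956 the difference stayed at -0.88 to -0.79 when arrays were left out in turn. The call was lost without any 1 of the wild type arrays (adjusted p 0.055 to 0.102). Without knockout 1 or 2 a single knockout value remained, so only the difference is given for these. It was also lost with slide as a block (adjusted p = 0.0683), within slide 1 (0.258), with the replicate block (0.148) and under normexp (0.537), at differences of -0.86 to -0.82. The 3 measured genes on either side of Vcam1 differed by -0.46 to 0.31, and none was called.

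Icam1, the inducible ligand of the integrins Itgal and Itgam, gave 32.9, 8.19 and 19.0 in knockout and 53.5, 47.0 and 39.9 in wild type. All 3 knockouts lay lower, but only 1 knockout and 2 wild type arrays read the probe well above background. The difference was -1.43 (SE 0.48, adjusted p = 0.163). Its spot on knockout array 1 was in the low patch, though it deviated by only -0.28 from the other arrays, and without it the difference was -1.90 (adjusted p = 0.0493), a call that rests on 2 knockout arrays, neither of which read the probe well above background. Without knockout 2, the lowest array, the difference was -0.89 (adjusted p = 0.21). Under normexp it was 0.50 (adjusted p = 0.654). In that setting without low spots, 4.82% of all genes were called lower and 0.319% higher. Icam2, the constitutive endothelial form, gave 452, 527 and 474 against 377, 464 and 387 and differed by 0.25 (adjusted p = 0.241). Icam4, a red cell adhesion protein, gave 31.3, 42.1 and 58.2 against 52.4, 62.3 and 70.4 and differed by -0.53 (adjusted p = 0.24). Both sets of values overlapped between the groups. Icam4 was well above background on only 2 of 3 wild type arrays, and under normexp it differed by 0.65.

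Macrophage and endothelial cells carry these genes, and their markers were read in the same arrays. Of 20 measured macrophage markers 5 were called lower, Cd14, C1qc, Cd74, Lyz1 and Ctss, and 0 higher, with a median of -0.46 and a summed signal of 110125 to 127142 in knockout and 115376 to 125475 in wild type. Before adjustment (limma, p under 0.05), 12 macrophage markers were lower and 0 higher, and 3 endothelial markers were lower and 1 higher. Of all measured genes 13.6% were lower and 12.0% higher before adjustment, and 3.53% were called lower and 0.218% higher. Of 17 measured endothelial markers 2 were called lower, Robo4 and Ly6c1, and 0 higher, with a median of -0.08. Their summed signal was 40749 to 42963 against 44540 to 47153, and their mean log2 level -2.34 to -2.29 against -2.14 to -2.06. No array read Erg well above background. The part of these cells in the Vcam1 and Icam1 values was not tested. In whole testis, fewer cells of a type and less RNA per cell cannot be told apart.

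None of the 5 nectins and nectin-like members passed. Nectin3 gave 21434, 21153 and 22464 in knockout and 20878, 18700 and 18880 in wild type, slightly higher without overlap, and differed by 0.16 (SE 0.08, adjusted p = 0.269). Its partner Nectin2 gave 12949, 16125 and 15136 against 15866, 16430 and 19516 at its brighter probe A_55_P2167025, a difference of -0.23 (adjusted p = 0.294). A second Nectin2 probe, A_52_P188678, which matches another RefSeq transcript of the gene, gave 7625, 8385 and 8625 against 7610, 7620 and 6763, a difference of 0.16 (adjusted p = 0.297). Nectin1 (0.09) and Nectin4 (0.06), which mediate contacts in epithelia, lay near 0. Pvr, the poliovirus receptor relative that binds Cd226, Tigit and Cd96 on lymphocytes, gave 47.5, 662 and 632 in knockout and 822, 829 and 838 in wild type. The 47.5 of knockout mouse 1 came from the low patch, where the whole tile had a median deviation of -2.88. The Pvr difference was -1.62 (SE 1.01, adjusted p = 0.355) with that spot and -0.36 (adjusted p = 0.0811) without it, the other 2 knockouts still lying below all 3 wild types.

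Cadm genes, the synaptic cell adhesion family that includes the germ cell protein Cadm1, had 0 of 4 members called. Cadm1 gave 18004, 19382 and 19640 in knockout and 18092, 16235 and 17988 in wild type, overlapping groups that differed by 0.13 (SE 0.08, adjusted p = 0.37). Cadm2 gave 580, 466 and 471 against 459, 442 and 451, a difference of 0.16 (adjusted p = 0.377), with knockout mouse 1 the highest. Cadm3 (0.05) and Cadm4 (-0.09) differed by less. For the 4 genes the differences lay within -0.09 to 0.16. In the same arrays 6 of 22 measured Sertoli cell markers were called lower, Sox9, Gata1, Vim, Aard, Gstm6 and Shbg, and 0 higher (median -0.42), with a summed signal of 338717 to 373311 in knockout and 382751 to 395889 in wild type. Before adjustment (limma, p under 0.05), 14 of the Sertoli cell markers were lower and 1 higher. None of 13 round and 16 elongating spermatid markers was called in either direction by limma; before adjustment, 6 and 4 were higher and 0 lower (p under 0.05), with medians of 0.23 and 0.26. Of 11 measured Leydig cell markers 2 were called lower, Hsd3b1 and Hsd11b1, and 0 higher, with a median of -0.11. Before adjustment 3 Leydig cell markers were lower and 1 higher (limma, p under 0.05). Their summed signal overlapped, at 148948 to 214970 in knockout and 172362 to 236344 in wild type. Limma called none of 17 spermatogonial, 17 spermatocyte and 6 blood cell markers, with medians of -0.09, 0.22 and -0.61. Before adjustment (p under 0.05) these 3 lists had 2, 0 and 3 lower and 1, 7 and 0 higher. Beside all of these marker lists, 3.53% of all measured genes were called lower and 0.218% higher. Before adjustment the shares were 13.6% lower and 12.0% higher. The part of these cells in the nectin and Cadm values was not tested.

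The neural families Ncam and L1 also had no called member. Ncam1, the homophilic neural cell adhesion molecule, gave 816, 784 and 785 in knockout and 683, 645 and 686 in wild type at its brightest probe, each knockout above each wild type, with a difference of 0.24 (SE 0.07, adjusted p = 0.118). Its other tested probes differed by -0.10 and 0.21. Nfasc, neurofascin, an ankyrin-binding protein of the axon, gave 35.0, 133 and 144 against 178, 180 and 208. The lowest of these again came from the low patch, and the difference of -1.10 (SE 0.54, adjusted p = 0.262) was -0.44 (adjusted p = 0.0941) without it. Chl1, the close homologue of L1, gave 53147, 59373 and 50818 against 50117, 50076 and 48031 (0.14, adjusted p = 0.346), and its second probe differed by -0.10. Nrcam, a relative, differed by -0.07 (adjusted p = 0.674). Of 11 measured markers of Schwann cells and nerve, 0 were called in either direction by limma. Before adjustment 1 was lower and 0 higher (p under 0.05), beside 13.6% and 12.0% of all measured genes.

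**Figure D4:**
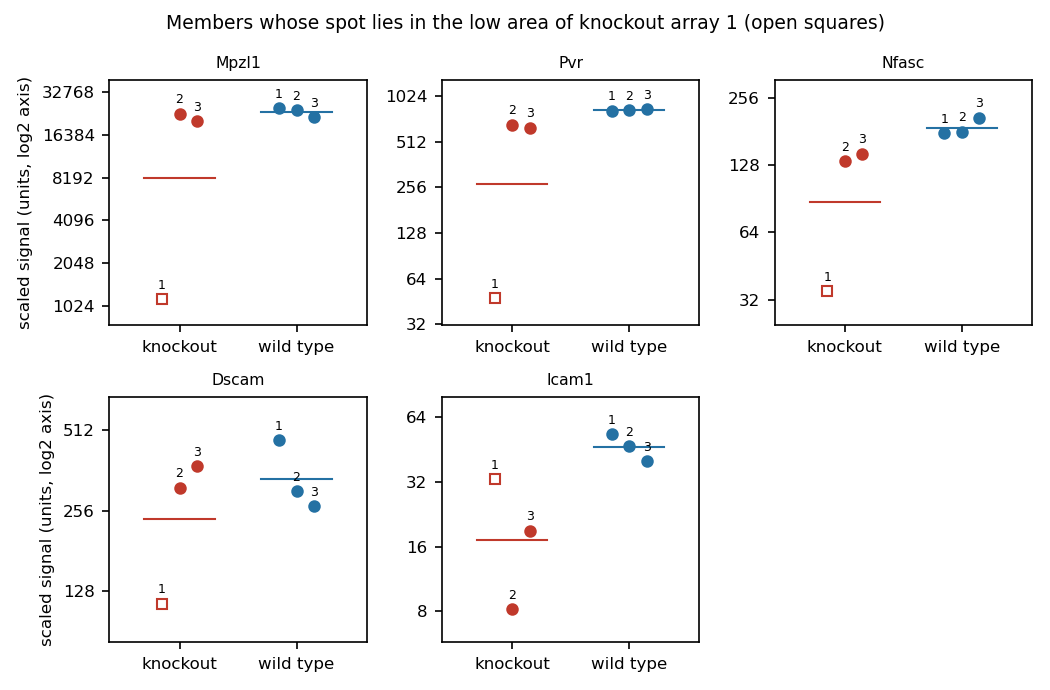
Scaled signal on each array (log2 axis, units) for the 5 members whose spot on knockout array 1 (open square) lay in its low patch; digits give the mouse and lines the mean of the log2 values. For Mpzl1, Pvr and Nfasc that spot alone pulls the knockout mean far below the other 2 knockouts, and for Icam1 it is the highest of the 3.

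Bcam and Alcam were a little lower in every knockout. Bcam, the Lutheran antigen that binds the laminin chain Lama5, gave 318, 364 and 325 in knockout and 407, 401 and 478 in wild type (-0.35, SE 0.10, adjusted p = 0.126). Alcam, which binds itself and the T cell protein Cd6, gave 389, 430 and 442 against 494, 559 and 493 (-0.29, SE 0.09, adjusted p = 0.141). Neither passed, and under normexp they lay at 0.05 and 0.03. Mcam, an adhesion protein of vessels and smooth muscle, differed by -0.07 at both of its probes. Of 10 measured markers of peritubular smooth muscle cells 1 was called lower, Smtn, and 0 higher. Before adjustment (limma, p under 0.05) 1 was lower and 2 were higher. Their median was -0.14, and -0.02 with spots in low tiles set to missing. Among all measured genes 3.53% were called lower and 0.218% higher, and 13.6% and 12.0% before adjustment.

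Nptn and Cd47 lay lower too, without passing. Nptn, neuroplastin, a relative of basigin, gave 6550, 6734 and 5920 in knockout and 7135, 7962 and 8118 in wild type at its brighter probe (-0.27, SE 0.09, adjusted p = 0.158), while its second probe gave 2760, 3220 and 2900 against 2932, 2780 and 2621 (0.09, adjusted p = 0.553). Cd47, the signal on a cell's surface that restrains phagocytes through Sirpa, gave 5559, 5510 and 5043 against 6223, 6503 and 5683 (-0.19, SE 0.09, adjusted p = 0.237). Its second probe differed by -0.26 (adjusted p = 0.164), so both Cd47 probes pointed the same way and both kept the groups apart.

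The contactins, proteins anchored by a lipid tail that work with neural receptors, had 0 of 5 measured members called. Cntn2 gave 68.6, 57.0 and 54.2 in knockout and 64.9, 87.4 and 64.2 in wild type, a difference of -0.26 (adjusted p = 0.34). Cntn4 gave 86.7, 71.0 and 73.5 against 71.5, 74.1 and 67.6 at its brightest probe (0.11, adjusted p = 0.507). Another Cntn4 probe, A_55_P2013888, gave 116, 63.4 and 68.8 against 43.8, 54.3 and 59.8 (0.61, SE 0.25, adjusted p = 0.215), with 1 wild type array not well above background. Without knockout 1, its highest array, this was 0.34 (adjusted p = 0.229). The remaining Cntn1, Cntn5 and Cntn6 differed by 0.10, 0.14 and -0.09.

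Dscam and the sidekicks, large homophilic proteins of neurons, were not called either. Dscam gave 115, 312 and 374 in knockout and 468, 303 and 266 in wild type. Its lowest value lay in the low patch, and the difference went from -0.50 (SE 0.47, adjusted p = 0.534) to 0.03 (adjusted p = 0.958) without it. Sdk1, at 201, 187 and 200 against 209, 204 and 162, differed by 0.04 (adjusted p = 0.845), and Sdk2 by -0.02. Beside these families, Ncam2, L1cam and Cntn3 had probes that did not meet the detection rule. Ncam2 was well above background on 1 wild type array at 1 of 3 probes, where it read 101, and Cntn3 on none.

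Where a gene had several tested probes, their ratio on each array was compared between the groups. The members gave 14 such pairs in 10 genes, and 7 pairs in 6 genes had ranges that did not overlap between knockout and wild type, where 16.7% of all pairs did. For Vcam1 the first probe exceeded the second by 0.94 to 1.13 on the log2 scale in 2 knockouts and by 1.56 to 1.86 in 3 wild types. For Nectin2 the dimmer probe differed from the brighter by -0.94 to -0.76 in knockout and by -1.53 to -1.06 in wild type. The other 4 genes were Ncam1, Nptn, Cntn4 and Ceacam2. With 3 arrays a group, or 2 and 3, an exact two-sided permutation test cannot go below 0.1, which all 7 reached, and after adjustment over the 14 pairs they stood at 0.2. Which transcripts the probes of a pair read was not tested.

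The binding partners of these proteins were read from a list of 46 genes, of which 39 were measured. In it 6 fell, 0 rose and 33 did not pass, with a median difference of -0.27. In limma 16 were lower and 6 higher before adjustment (p under 0.05). Of all measured genes, 3.53% were called lower and 0.218% higher, and before adjustment 13.6% were lower and 12.0% higher. Itgax, an integrin chain of macrophages and dendritic cells that pairs with Itgb2, gave 82.8, 81.7 and 106 in knockout and 308, 362 and 355 in wild type (-1.93, SE 0.13, adjusted p = 0.00369). Itga9, whose pair with Itgb1 binds Vcam1, gave 300.0, 270.0 and 291 against 632, 576 and 509 (-0.99, SE 0.10, adjusted p = 0.0111). For both genes every knockout lay below every wild type. Ezr (-0.82, adjusted p = 0.0154) and Msn (-0.62, adjusted p = 0.0258), which tie Icam proteins to actin, fell as well. Their relative Rdx lay higher in every knockout without passing (0.26, adjusted p = 0.122). Nrp1, a co-receptor of semaphorins (-0.71, adjusted p = 0.0343, but 0.06 under normexp), and Thbs1, the thrombospondin that binds Cd47 (-0.56, adjusted p = 0.0489), also fell. Leaving out knockout 2, knockout 3 or wild type 2 kept Itgax alone among the 6 called partners.

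Values of partners that did not pass are given beside those of the members they bind. The Icam1 receptors Itgal and Itgam differed by -0.04 (adjusted p = 0.805) and 0.01 (adjusted p = 0.963). Itga4, another integrin chain that binds Vcam1, differed by -0.57 (adjusted p = 0.0652). It was well above background on only 2 arrays of each group and differed by 0.60 under normexp. Its partner chain Itgb1 differed by -0.27 (adjusted p = 0.102). Sirpa, the receptor of Cd47, differed by -0.41 (adjusted p = 0.119), and Ptpn11, the phosphatase that binds Mpzl1, by -0.38 (adjusted p = 0.0829). The lymphocyte receptors of the nectin group were read as Cd96 at 0.36 (adjusted p = 0.118) and Crtam, a receptor of Cadm1, at 0.28 (adjusted p = 0.184), while no array read Cd226 or Tigit well above background.

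Of 50 measured other genes of the superfamily, 3 fell, 0 rose and 47 did not pass, with a median of -0.03. In limma 6 were lower and 6 higher before adjustment (p under 0.05). The shares of all measured genes were 3.53% called lower and 0.218% higher, and 13.6% and 12.0% before adjustment. The 3 that fell were Vsig10 (-0.59, adjusted p = 0.0239), F11r, the junctional adhesion molecule of tight junctions (-0.45, adjusted p = 0.04), and Emb, embigin, which carries lactate transporters to the membrane (-0.88, adjusted p = 0.0471). Without any one array 0 to 1 of these 3 was called. Slamf1, a leukocyte receptor named here after its values were seen, differed by 0.55 (adjusted p = 0.0641).

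The 2 called members and the Vcam1 probe were followed through the processing settings. Mpzl2 stayed between -3.60 and -2.08 and Psg16 between -1.84 and -0.10. Both were called in every setting plotted except normexp alone, slide 1 alone and the fit with replicate number as a block; the pair of slide 2 has no test.

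**Figure D5:**
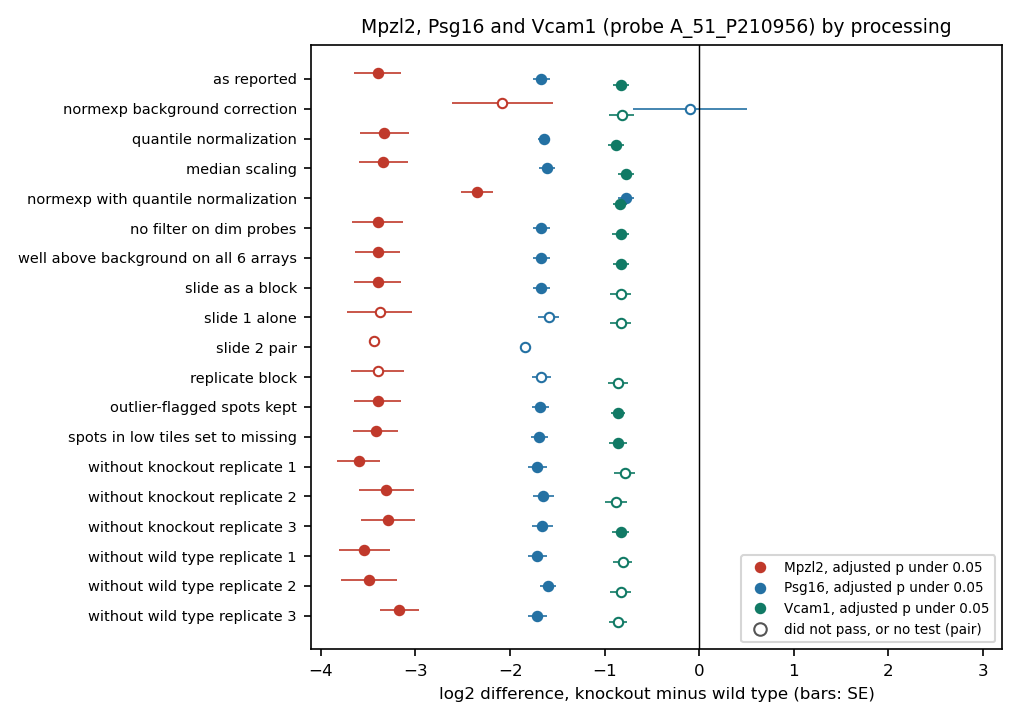
Log2 difference, knockout minus wild type, with its SE, under each processing setting for Mpzl2 (red), Psg16 (blue) and Vcam1 probe A_51_P210956 (green); filled points have an adjusted p under 0.05, open ones did not pass or have no test. Mpzl2 and Psg16 are open under normexp alone, slide 1 alone, the slide 2 pair and the replicate block, and Vcam1 is open in most settings that leave out an array.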

How the data were processed

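RNA of each testis was labelled with Cy3 and read on 1 array, per the labels' protocols. Per the file headers, the authors made the scanner files with Feature Extraction 10.7.3.1, and their deposited values are linear spot intensity; the column used is the background-subtracted processed signal. The deposited series value table also holds linear intensity, by an unstated normalization, and each of its columns matched an array of the opposite label (r 0.97 to 0.99). Control spots were dropped and spots marked as outliers (163 to 280 an array) were set to missing. Log2 signals were averaged per probe, less the array's 75th percentile. A probe was tested when at least 3 arrays read it well above background and each group kept 2 values, giving 31801 probes. Differences came from limma 3.58.1 in R 4.3.3 (lmFit, eBayes, two-sided), with Benjamini-Hochberg adjustment over all tested probes. A gene counted through its brightest complete probe. Accessions were named through RefSeq of GRCm38.p6 (26055 of 39429 probes named, 13374 not), which also gave gene order but no coordinates, the array being designed on mm9. Scripts were tested on simulated data.

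The members and lists were chosen with earlier results of these data known. Named with all values are members with a called probe, the Mpzl genes and, in each family without a call, the 2 members of smallest p. Icam1, Icam2, Icam4, Pvr, Chl1 and Ceacam2 were added after their values were seen. Of the partner and other lists, called genes are named, and values of others were added likewise. Alternatives were normexp (offset 50, on the median signal, since the files have no mean signal column), quantile and median scaling, the dim-probe filter, slide and replicate as blocks, each slide, marked spots kept, the gene mean, the value table, and each array left out. Replicate numbers did not pair the arrays (correlations of deviations -0.025, -0.082 and -0.09). The number of arrays limits the precision.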

Additional observations from a re-analysis of the deposited data

Results flagged for a closer look

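In probes outside the tested set, 2 members had signals well above background in knockout and not in wild type. L1cam probe A_55_P2100555 read 35.3 units on knockout array 1 and was well above background there only; the other 5 arrays read 19.9 to 25.9. Cadm2 probe A_51_P442642 read 45.4 units on knockout array 1, 28.5 on knockout array 2 and 14.8 on knockout array 3, well above background on 2 of the 3, and 9.64 to 24.3 on the wild type arrays, well above background on none. The knockout and wild type values of both probes overlapped, neither was tested, and the tested Cadm2 probe differed by 0.16.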

How the results depend on the processing

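Members called lower fell from 2 to 0 under normexp, within slide 1, with replicate number as a block and under the value table's own labels, where instead 2 were called higher, Mpzl2 and Psg16. Before adjustment (limma, p under 0.05), 2, 3, 7 and 2 members were lower and 0, 1, 2 and 8 higher in those 4 settings, where 3.63%, 7.26%, 12.3% and 9.95% of all genes were lower and 2.79%, 3.52%, 9.68% and 12.8% higher. The same 2 members were called in all the other settings and without each array in turn, and setting low spots to missing added Icam1. With marked spots kept, Vcam1 was still counted through A_52_P520495, though its brighter probe A_51_P210956 passed there (-0.86, limma adjusted p = 0.00698). Replicate numbers did not pair the arrays, and that block gave 9 lower and 1 higher of all tested probes. All tested probes gave 0 and 0 calls under normexp and within slide 1, 299 lower and 15 higher with slide as a block, 868 and 217 under quantile normalization, and 569 and 143 with median scaling.

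Of the partner and other superfamily genes, 9 were called lower, but 0 under normexp, within slide 1 and with the replicate block, 3 with slide as a block and with no filter, 5 under normexp with quantile normalization, and 1 to 5 without each array in turn. Of all measured genes, 3.53% were called lower as reported and 1.27% with slide as a block and with no filter. Without each array in turn the share was 0.472% to 1.8%. Slamf1 alone (1 gene) was called higher under quantile normalization, median scaling, detection on all 6 arrays and the mean over probes. The median difference of members was 0.18 under normexp (all genes 0.16, from 0.05) and -0.02 under quantile normalization (all genes 0.03). It was -0.01 with median scaling (all genes 0.11) and -0.01 within slide 1 (all genes 0.07). Without each array it was -0.14 to -0.01 (all genes 0.03 to 0.06).

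Under normexp 11 of 35 measured members turned sign (31.4%; 21.7% of all measured genes), none of them called: Nfasc to 0.26, Bcam 0.05, Alcam 0.03, Cntn2 0.57, Dscam 0.26, and Icam1, Icam4, Nrcam, Cadm4, Cntn6 and Sdk2. Of the called partner and other genes, Nrp1 did (0.06). The value table's own labels turned the called Mpzl2 to 3.33 and Psg16 to 1.64. Dscam was 0.03 both without low spots and without knockout array 1, and -0.83 to 0.03 over the arrays left out in turn. Sdk1 was -0.08 to 0.11 over these, lowest without wild type array 3, and Mpzl3 was -0.07 under normexp with quantile normalization. The cause of these changes of sign was not tested. Icam1, Icam4, Cadm3 and Mpzl3 were not well above background on every array at their counting probes, which limits their differences.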
